A study of Saccharomyces cerevisiae with 10 samples.

Results

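The regions described here are the ORC binding sites that were listed in wild-type (WT) budding yeast and had no counterpart in the Orc4-IHΔ mutant. They are the lines of the WT ORC ChIP-seq peak list that share no base with any line of the mutant list. Of the 618 lines in the WT list, 341 met this rule (55.2%, 95% Wilson interval 51.2% to 59.1%) and 277 overlapped a mutant line. The 4 lists analysed hold 7774 lines in all. Each line is called a peak below, and the 341 are called WT-only peaks. The values that chose them are peak positions in the 2 ORC lists, so widths, fold enrichments and distances to mutant ORC peaks are given as descriptions and not as tests. The share of WT peaks without a counterpart is a result of the rule, and nothing is read from it.

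ORC is the origin recognition complex, an assembly in which Orc1 to Orc5 form a ring and Orc6 is attached to it. The complex marks the sites where DNA replication can start and serves as the platform on which Cdc6 and Cdt1 load the MCM helicase. In budding yeast ORC recognises a T-rich ARS consensus sequence (ACS) at defined origins. Orc4 of budding yeast has an insertion helix (IH) that touches the bases of this sequence and that human Orc4 lacks. Replication origins in yeast are typically free of nucleosomes, and ORC takes part in placing the nucleosomes on either side.

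Both strains were MATa W303-1a derivatives with the marker alleles ade2-1, ura3-1, trp1-1, can1-100, his3-11, 15 and leu2-3, 112. Both carried GALS-ORC4-kanMX4, in which endogenous ORC4 is switched off on glucose, and ORC6-MYC-hphNT1. The WT strain carried ura3-1::ORC4-URA3 and the mutant carried ura3-1::orc4-IH_delta-URA3, each expressed from the native ORC4 promoter, so that WT cells also depended on an ectopic copy and are not an unmodified strain. All cells were shifted from YPG to YPD to deplete endogenous Orc4 and were held at G2/M for about 3 h by benomyl (20 µg/ml), which depolymerises microtubules. ORC was recovered through MYC-tagged Orc6 from chromatin sheared to an average of 300 bp, and open chromatin was mapped in the same pair of strains by ATAC-seq, which uses a transposase to cut DNA that nucleosomes leave free. ATAC-seq cells were in the same arrest. For ORC the design text gives 2 libraries per strain, but each strain has 1 deposited list, and ATAC-seq was done with 1 library per strain. There is thus no replicate spread, and no test between strains was possible.

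Read depth behind the lists is unknown, so a WT-only peak is a site where no mutant peak was listed and not a site where ORC-IHΔ was shown to be absent. Wilson intervals cover counting error only, and peaks of 1 list are not independent replicates. Coordinates are in sacCer2, the build named in the submitters' processing notes. No genome or annotation of that build was used here, so genes, origins and sequence at these sites are not described.

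WT-only peaks were mostly narrow and of low enrichment, with a strong minority. Their median width was 270 bp (quartiles 179 and 520 bp, range 7 to 1566 bp), against 484 bp (quartiles 239 and 882 bp, range 32 to 2769 bp) for the WT peaks that overlapped the mutant list. Fold enrichment is the linear ratio of a peak over its background as the authors' peak caller gave it, and every piece of a split call carries the value of the whole call. In 60 WT-only lines, 32 of them undivided by name, the summit offset counted from the start of the call was at least as long as the line. Such a line is only a part of its call, so widths are those of the listed intervals and may be shorter than the called peaks. Fold enrichment had a median of 2.57 in WT-only peaks (quartiles 2.00 and 4.92, range 1.20 to 11.0) and of 3.32 in overlapping peaks (quartiles 2.45 and 6.80). The ranges overlapped almost completely, and the highest values of the 2 classes were 11.0 and 11.1. A fold enrichment of at least 5 was found for 84 WT-only peaks (24.6%, interval 20.4% to 29.5%), against 30.1% of the whole WT list and 36.8% of overlapping peaks. Since a wider peak has more bases at which it can meet another, width is bound up with the rule. Of WT peaks under 200 bp, 118 of 173 were WT-only (68.2%). Of those of 800 bp or more, 40 of 118 were (33.9%).

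**Figure D1:**
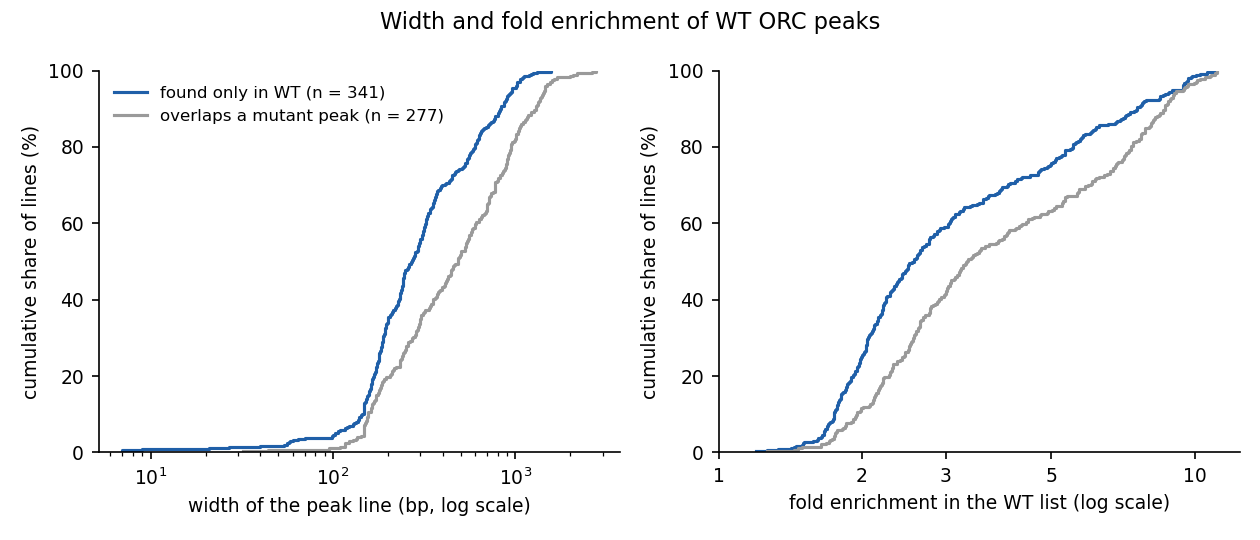
Cumulative share of peak lines (y axis, %) by width in bp (left) and by fold enrichment in the WT list (right), both on log axes, for the 341 lines found only in WT (blue) and the 277 that overlap a mutant peak (grey). The blue curves lie to the left over most of their length, with medians of 270 against 484 bp and of 2.57 against 3.32, and the curves of fold enrichment meet near their upper end.

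Strength ran together with other features of the WT-only peaks. When all 618 WT peaks were divided at the quartiles of fold enrichment, the lowest group (under 2.13) held 113 nuclear WT-only peaks with a median width of 188 bp, and the highest (5.65 and above) held 64 with a median width of 653 bp. In the lowest group 74.3% of nuclear WT peaks were WT-only (interval 66.9% to 80.6%), and in the highest 41.3% were (interval 33.8% to 49.2%). The weakest WT-only peaks were a median of 840 bp from the nearest mutant peak, and the strongest a median of 2227.5 bp. These are descriptions of values from the same pair of lists that set the rule.

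The 10 WT-only peaks with the highest fold enrichment, between 9.66 and 11.0, belonged to 9 called peaks. The first, on chromosome V from 498454 to 499560 (fold enrichment 11.0, width 1107 bp), lay 4284 bp from the nearest mutant peak, which spans 503845 to 503994 and had 2.39. The second and the third came from a single split call on chromosome VI. The left piece spans 198721 to 199811 and the right piece 199965 to 200154, with 10.6 on both lines. Of the 10, this right piece and both fragments described next were shorter than the summit offset of their calls. That offset does not place the summit within a piece that starts later than its call. All 4 pieces of split calls among the 10 rank by the value of the whole call. The nearest mutant peak to both chromosome VI pieces (196376 to 196574, fold enrichment 2.43) lay 2146 and 3390 bp away. None of the first 3 peaks touched an ATAC-seq peak, and the nearest open regions were 3859, 1975 and 3219 bp away.

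Of the 10, only 2 peaks were fragments whose other piece did overlap the mutant list. On chromosome XIV, the piece from 279576 to 279844 (fold enrichment 10.3) lay 76 bp from the other line with the same peak name. That other line overlapped the mutant peak from 279961 to 280439, which had a fold enrichment of 7.31 in the mutant list and began 116 bp from the WT-only piece. On chromosome IV, the piece from 1503154 to 1503401 (fold enrichment 9.69) was 179 bp from a mutant peak from 1502311 to 1502974 (fold enrichment 8.12) that its partner overlapped. These WT-only pieces were thus the edges of called peaks that the mutant list does hold, and the other 8 peaks were not.

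The remaining 5 were undivided peaks of 573 to 1253 bp. On chromosome XV the peak from 600761 to 601333 (fold enrichment 10.1) lay 1043 bp from a mutant peak of 6.05-fold enrichment, and the peak from 277145 to 278166 (9.84) lay 5350 bp from one with 3.36. On chromosome XVI the peak from 384048 to 385300 (9.68) lay 2294 bp from one with 3.51. These 3 were outside ATAC-seq peaks, by 4848, 1925 and 690 bp. On chromosome X the peak from 416949 to 417951 (9.66) lay 3251 bp from a mutant peak with 2.82 and 765 bp from the nearest open region. The peak on chromosome III from 315040 to 316096 (9.86) was the exception: it shared 528 bp with an ATAC-seq region and was 185 bp from a mutant peak with 2.44. It ended 367 bp from the largest peak end on that chromosome. Fold enrichments of the WT and mutant lists come from separate calls and were not compared by a test.

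**Figure D2:**
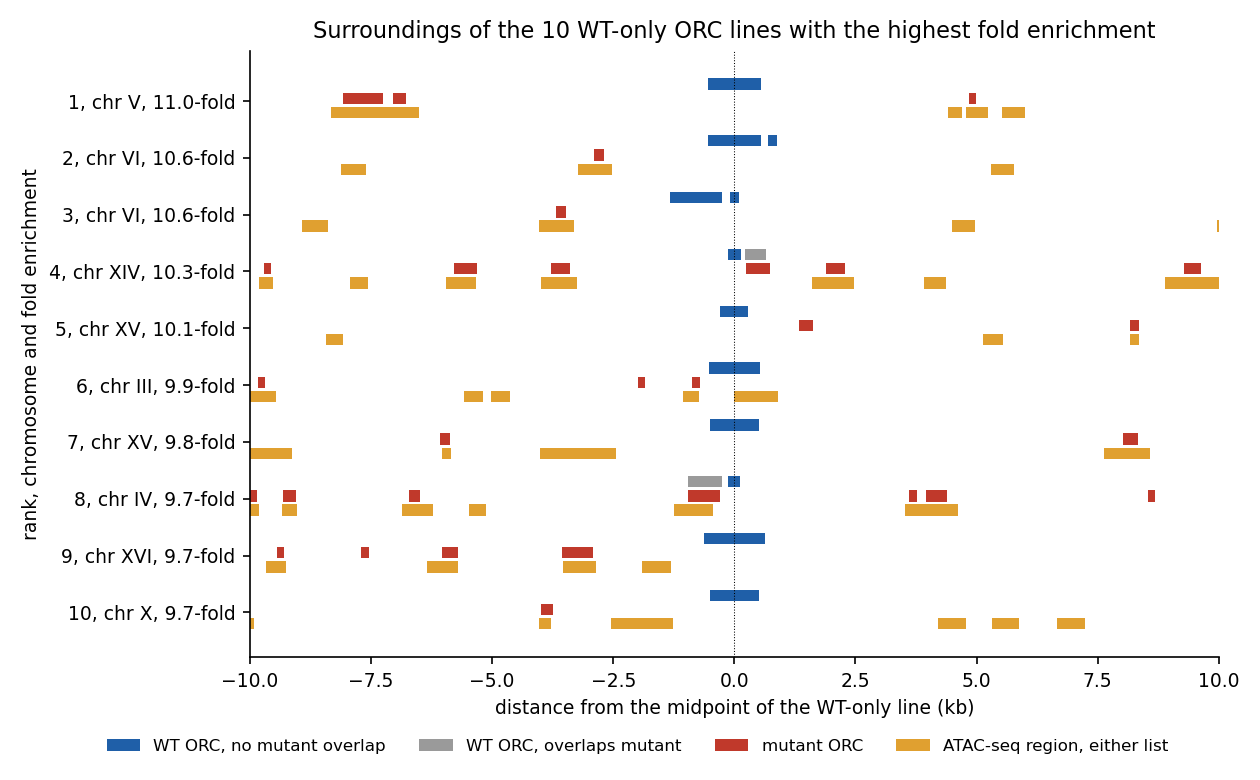
Peak lines within 10 kb of the 10 WT-only ORC lines with the highest fold enrichment, 1 row each (rank, chromosome and fold enrichment on the y axis), drawn to scale against distance in kb from the midpoint of the WT-only line. Blue marks WT ORC lines without mutant overlap, grey WT ORC lines that overlap a mutant line, red mutant ORC lines and orange ATAC-seq regions of either list. In 7 rows the nearest mutant line is more than 1000 bp away, and 1 row has an ATAC-seq region at its centre. The 2 rows with a grey line are the split called peaks on chromosomes XIV and IV, whose other piece overlaps a mutant line. Rows 2 and 3 are the pieces of the split call on chromosome VI, both without mutant overlap.

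Some WT-only peaks were pieces of a larger called peak. The 341 lines carried 327 distinct peak names, and 40 of them shared a name with another line (11.7%, interval 8.73% to 15.6%), against 9.71% of the whole WT list. Of the 40, 24 belonged to 12 called peaks all of whose pieces were WT-only, and 16 belonged to 14 called peaks with at least 1 other piece that overlapped a mutant peak. Leaving these 14 aside, 313 called peaks had no line that met the mutant list. Across the WT list, the 31 gaps between pieces of 1 name were 76 to 409 bp long, with a median of 102 bp. The narrowest WT-only peaks were intervals of 7 bp, at 623181 to 623187 of chromosome XV and 654589 to 654595 of chromosome XVI, and of 9 bp, at 418490 to 418498 of the latter. In all, 15 WT-only peaks were under 100 bp, and 9 of these were shorter than the summit offset of their call. The widest lay on chromosome III from 38996 to 40561 (1566 bp, fold enrichment 5.34), followed by chromosome II from 590515 to 591824 (1310 bp, 7.81) and by the 1253 bp peak on chromosome XVI given above.

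The distance to the nearest mutant ORC peak ranged from 5 bp to 22423 bp on the nuclear chromosomes, with a median of 1183 bp (quartiles 467.5 and 3037.5 bp, n = 339). Within 100 bp, 9 WT-only peaks had a mutant peak. Within 300 bp, the average length of the sheared DNA, 56 did (16.5%, interval 12.9% to 20.8%), and within 1000 bp 149 did (44.0%). No mutant peak lay within 5000 bp of 49 WT-only peaks (14.5%, interval 11.1% to 18.6%), against 7.97% of all nuclear WT peaks, a background in which overlapping peaks cannot take part. The sites without a mutant counterpart therefore ran from immediate neighbours of a mutant peak to stretches where none was listed over many kilobases. Within 10 kb, 17 WT-only peaks had none. Counted within 5 kb, WT-only peaks had a median of 2 mutant peaks around them (range 0 to 7) and overlapping WT peaks had 4 (range 1 to 9, where the overlapped peak itself is counted).

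At the threshold of the rule, the closest WT-only peak was on chromosome XIII from 511609 to 511796, 5 bp from a mutant peak. It was followed by chromosome VI from 19947 to 20192 (18 bp) and chromosome XIII from 432709 to 433515 (20 bp). Just on the other side were WT peaks that shared only 4 bp with a mutant peak (chromosome VI from 53270 to 53689), 11 bp (chromosome II from 589673 to 589794) and 13 bp (chromosome XII from 856209 to 857260). In the first and the last of these the mutant interval was itself only that wide, from 53461 to 53464 and from 857133 to 857145. At the far end, the most remote WT-only peaks were on chromosome VIII from 147887 to 148098 (22423 bp from a mutant peak), on chromosome XI from 558595 to 558757 (21789 bp) and on chromosome X from 745150 to 745518 (19594 bp). Their fold enrichments were 2.58, 2.30 and 3.04, so that the most remote peaks were not the strongest.

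Among the 84 WT-only peaks with a fold enrichment of at least 5, all on nuclear chromosomes, the median distance to a mutant peak was 2153.5 bp. Of these, 63 were more than 1000 bp from any mutant peak, 45 more than 2000 bp and 19 more than 5000 bp. Their median width was 650.5 bp. In 76 of the 84 no piece of the called peak overlapped the mutant list, against 325 of all 341 WT-only peaks.

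**Figure D3:**
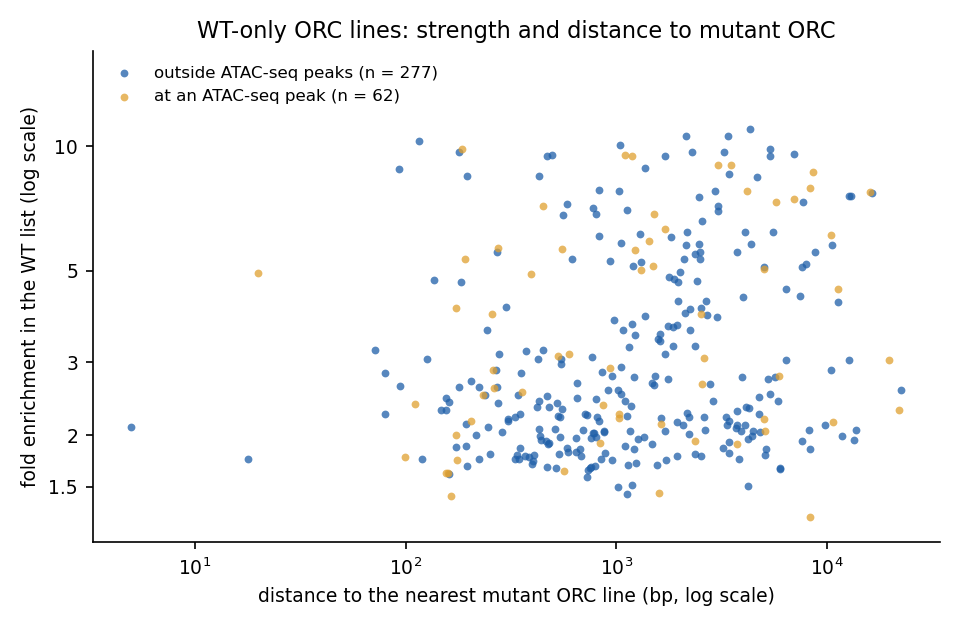
Fold enrichment in the WT list (y axis, log scale) against distance to the nearest mutant ORC line in bp (x axis, log scale) for the 339 WT-only ORC lines on nuclear chromosomes, each point 1 line. Orange points overlap an ATAC-seq peak of either list (n = 62) and blue points do not (n = 277). Weak lines are spread over nearly the whole range of distances, and of the 84 lines at or above 5 on the y axis 63 lie beyond 1000 bp.

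WT-only peaks seldom lay in open chromatin as ATAC-seq called it. Of the 339 on nuclear chromosomes, 62 shared bases with an ATAC-seq peak from at least 1 list (18.3%, interval 14.5% to 22.8%), against 36.9% of all nuclear WT peaks and 165 of the 276 overlapping WT peaks (59.8%, interval 53.9% to 65.4%). The difference between the WT-only and the overlapping class was -41.5 percentage points (95% Newcombe interval -48.2 to -34.1, counting error only). The ATAC-seq lists did not enter the rule, but the mutant ORC list did, and 1540 of its 2216 nuclear peaks (69.5%) lay at ATAC-seq peaks. A WT peak in open chromatin thus had more mutant peaks at hand to meet, and the difference was not tested apart from this. The labels and the list names give opposite strains for the ATAC-seq lists. By the labels, 47 WT-only peaks overlapped the WT list of open regions and 52 the Orc4-IHΔ list, with 37 in both, so that the low share was seen with either list. Peak totals per strain in the study's text go with the list names, so these strain names may be exchanged.

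The classes differed in the same direction at every width. Among peaks under 200 bp, 14.5% of WT-only peaks (n = 117) and 54.5% of overlapping peaks (n = 55) were at ATAC-seq peaks. From 200 to under 400 bp the shares were 15.8% and 69.2%, from 400 to under 800 bp 22.6% and 53.8%, and from 800 bp upwards 30.0% (n = 40) and 61.5% (n = 78). The difference was between -31.3 and -53.4 percentage points in the 4 classes. None of the Newcombe intervals reached 0, but WT-only and overlapping peaks were set apart by the mutant ORC list, which lay mostly at ATAC-seq peaks. Sorting by width leaves this link in place, so the intervals cannot decide whether the difference goes beyond it. The direction was the same, with the same limit, in each of the 4 groups by fold enrichment. From the weakest group to the strongest, 12.4%, 17.9%, 20.5% and 26.6% of WT-only peaks were at ATAC-seq peaks. In overlapping peaks the shares were 46.2%, 65.7%, 60.5% and 60.4%. Of the 84 WT-only peaks with a fold enrichment of at least 5, 23 were at an ATAC-seq peak.

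With overlap counted as 0, distances to open regions were longer for WT-only peaks than for overlapping ones. The link through the mutant ORC list given above applies to these distances too. The median distance of WT-only peaks to the nearest ATAC-seq peak, with overlap taken as 0, was 600 bp (quartiles 186.5 and 1310.5 bp), and 229 of 339 had one within 1000 bp (67.6%, interval 62.4% to 72.3%), against 75.9% of all nuclear WT peaks. For overlapping WT peaks the median was 0 bp, and 86.2% had one within 1000 bp. When only peaks outside ATAC-seq peaks were counted, the median distance was 734 bp in both classes (n = 277 and n = 111). All WT-only peaks on nuclear chromosomes had an ATAC-seq peak within 10000 bp, and the largest distance was 8234 bp.

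**Figure D4:**
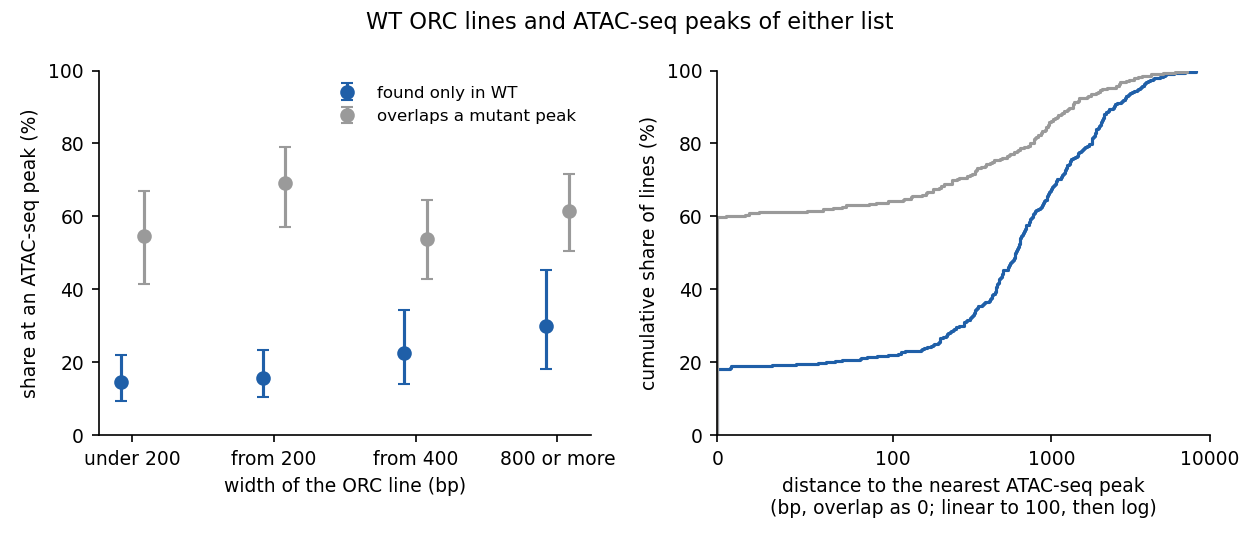
Left, share of WT ORC lines at an ATAC-seq peak of either list (y axis, %) by width of the ORC line in bp (each class runs up to the start of the next), for lines found only in WT (blue) and lines that overlap a mutant peak (grey), with 95% Wilson intervals as bars. Right, cumulative share of lines (y axis, %) by distance to the nearest ATAC-seq peak in bp, with overlap as 0 and an axis linear to 100 bp and logarithmic beyond. The blue shares run from 14.5% to 30.0% and the grey from 53.8% to 69.2%, and at distance 0 the curves stand at 18.3% and 59.8%.

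The open regions that WT-only peaks did meet had a median strength close to that of all open regions, and most held no mutant ORC peak. After the ATAC-seq lists were merged into 2716 regions, 63 regions, including 1 on the 2-micron plasmid, held a WT-only peak. Their median fold enrichment was 3.29 and their median width 631 bp, against 3.20 and 458 bp over all regions. Of the 63, 43 were present in both ATAC-seq lists (68.3%, interval 56.0% to 78.4%), against 77.4% of all regions. A mutant ORC peak lay elsewhere in 16 of them (25.4%, interval 16.3% to 37.3%), against 49.8% of all merged regions. The rule leaves less room for a mutant peak in a region of which a WT-only peak already takes a part, so this share is a description.

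The 3 WT-only peaks at the strongest open regions were all close to chromosome ends. On chromosome X the peak from 745150 to 745518, already named for its distance from mutant peaks, lay wholly within an 821 bp ATAC-seq region of 23.5-fold enrichment, 208 bp from the largest peak end. On chromosome VIII the peak from 221 to 387 lay within a region with a fold enrichment of 16.3. The peak from 5013 to 5972 on the same chromosome shared 825 bp with a region of 15.6. Their own fold enrichments in the WT ORC list were 3.04, 2.15 and 5.04, and the nearest mutant ORC peak to each was 19594, 10589 and 5004 bp away. These are the open regions of the highest rank, chosen by that rank, and they do not describe the other members at chromosome ends.

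A part of the WT-only peaks stood in groups with other WT peaks, and 188 stood alone. Another WT peak lay within 1000 bp of 151 of the 339 (44.5%, interval 39.3% to 49.9%), against 38.9% of all nuclear WT peaks and 31.9% of those that overlapped the mutant list. The difference between the classes was 12.7 percentage points (Newcombe interval 4.93 to 20.1, counting error only). Neighbouring peaks count each other, so the interval treats linked peaks as independent and nothing is concluded from it. The difference was not seen at every strength. From the weakest group by fold enrichment to the strongest, the shares were 52.2%, 42.9%, 42.3% and 35.9% in WT-only peaks. In overlapping peaks they were 33.3%, 42.9%, 28.9% and 25.3%. The Newcombe interval contained 0 in all groups but the weakest, and these intervals have the same limit. Pieces of split calls are among these neighbours: for 40 of the 151 WT-only peaks the nearest WT line had the same peak name. With lines of 1 name joined, 36.3% of WT-only peaks (n = 311) and 26.0% of overlapping peaks (n = 273) had a neighbour. The nearest neighbour was itself WT-only for 106 of the 151 (70.2%, interval 62.5% to 76.9%), against 47 of the 88 overlapping peaks with a neighbour (53.4%, interval 43.1% to 63.5%). Of the whole WT list, 55.2% were WT-only. Pieces of 1 call enter both counts and neighbouring peaks count each other, so nothing is concluded from these shares either.

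For 111 WT-only peaks the nearest WT line lay within 1000 bp and came from another called peak, at a median gap of 228 bp (quartiles 170 and 360 bp). Peaks whose nearest line was a piece of the same call are left out, even where another call was also close. Among the WT-only peaks below the median fold enrichment of the WT list, 83 had such a neighbour, and it was the stronger of the pair in 57 of them (68.7%, interval 58.1% to 77.6%). For 19 of the 83 the neighbour had a fold enrichment of at least 5. Among the WT-only peaks at or above that median, 28 had such a neighbour, and it was the stronger in 7. Weak peaks have more peaks above them to meet, so these counts are a description of the groups.

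Grouping peaks with gaps of at most 1000 bp gave 482 groups on the nuclear chromosomes, of which 188 were single WT-only peaks. A further 43 groups of 2 or more consisted only of WT-only peaks and held 92 of them, and 47 groups combined WT-only with overlapping peaks and held 59. The peak counted as strongest overlapped the mutant list in 30 of the 47 combined groups and was WT-only in 17. In some of these groups WT-only and overlapping pieces of the same call tied for the highest value, so their assignment is arbitrary. An example is chromosome X from 440603 to 443438, with 9.46 on every line. The group with the most WT-only peaks lay on chromosome XII from 951765 to 953526. Its 5 peaks had fold enrichments of 1.44 to 2.02, none met an ATAC-seq peak, and the nearest mutant peak was 777 bp away. On chromosome II from 589396 to 593087, 3 WT-only and 3 overlapping peaks stood together with fold enrichments of 1.75 to 7.81. On chromosome IV from 1057409 to 1058580, 3 WT-only peaks of 3.06 to 3.80 stood with no mutant peak between them. These 3 came from 2 called peaks, 1 of them split.

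WT-only peaks were found on all 16 nuclear chromosomes, from 6 on chromosome I to 37 on chromosome XIII. Per 100 kb, with chromosome length taken as the largest peak end, they ranged from 2.04 on chromosome XIV to 5.55 on chromosome VI. The WT-only shares of WT peaks there were 50.0% (16 of 32) and 60.0% (15 of 25), against 55.2% of the whole list. The density of all WT peaks was not set beside this range, which is not read as particular to WT-only peaks. The share of WT peaks that were WT-only was lowest on chromosome III (36.8%, 7 of 19, interval 19.1% to 59.0%). It was highest on chromosome VIII (76.0%, 19 of 25, interval 56.6% to 88.5%). Chromosome XIII had the next highest share, 71.2% (37 of 52, interval 57.7% to 81.7%). These shares follow from the rule and are given as a description. The share of these peaks in open chromatin ran from 0 of 15 on chromosome VI to 9 of 20 on chromosome XI and 3 of 6 on chromosome I. The count of 0 allows a share of up to 20.0%, a limit taken as 3 counts out of 15 and not from a Wilson interval. These counts are small, and the share over all WT peaks of each chromosome was not set beside them. The spread is therefore not read as particular to WT-only peaks.

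**Figure D5:**
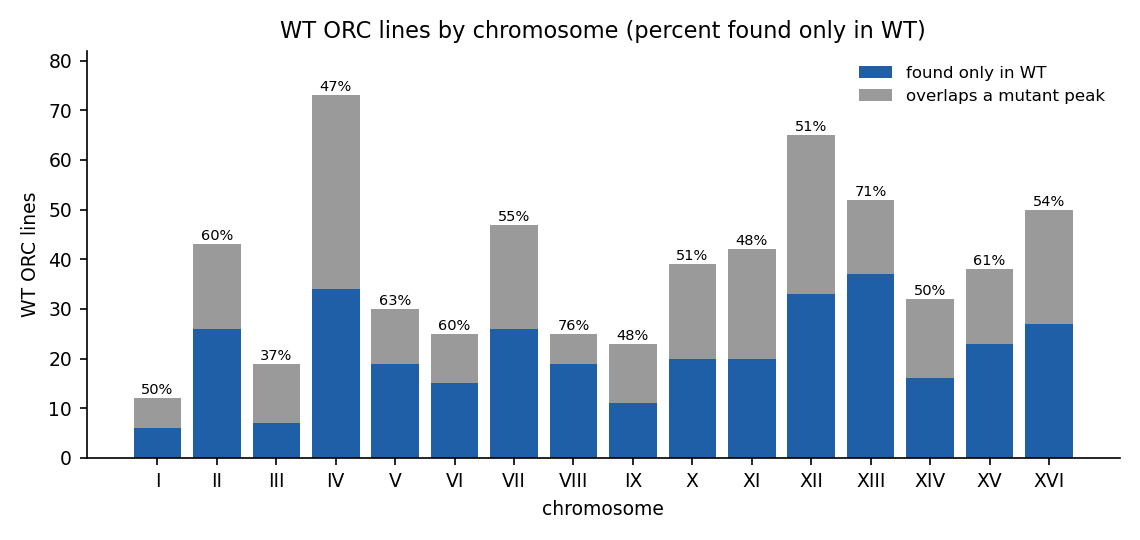
Number of WT ORC lines (y axis) on each of the 16 nuclear chromosomes (x axis), divided into lines found only in WT (blue) and lines that overlap a mutant peak (grey), with the percent found only in WT above each bar. The share is lowest on chromosome III (36.8%) and highest on chromosomes VIII (76.0%) and XIII (71.2%).

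WT-only peaks were found along the whole length of the chromosomes. Within 10 kb of an end lay 11 of 339 (3.24%, interval 1.82% to 5.72%), against 4.23% of all nuclear WT peaks and 15 of 276 overlapping peaks (5.43%). The difference of -2.19 percentage points had a Newcombe interval of -5.82 to 1.06, which contains 0, so that a difference from overlapping peaks was not shown. When each chromosome was divided into 5 equal parts from left to right, the share of WT peaks that were WT-only was 56.0%, 49.6%, 55.2%, 57.6% and 57.4%. The median gap between neighbouring WT-only peaks was 21110 bp, and in 85 of 323 such pairs (26.3%) no mutant peak lay between them. Of the 323 pairs, 84 were within 5 kb of each other, and pieces of the same call are among the pairs. The count was not made over all neighbouring WT peaks, so nothing is read from it.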

How the data were processed

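Peaks of Orc6-MYC ChIP-seq (1 combined list per strain) and of ATAC-seq (1 list per strain) were analysed. MCM, BrdU and MNase libraries are not analysed here. The submitters' processing notes name sacCer2, Bowtie 1.2.2 (Bowtie2 2.3.4.1 for ATAC-seq), Picard, SAMtools 1.3.1, bedtools 2.27.1 and MACS2 2.1.1.20160309. The deposited lists give the authors' fold enrichment (a linear ratio) and −log10 p and q values, and a score deposited by the authors, which was not used. Lines of the WT list carry peak names that read as 1 library, so their fold enrichment is not a mean of both libraries, and line edges may be those of stretches common to both, which was not tested. WT peaks had a deposited −log10 q of at least 1.31, mutant peaks of at least 1.32. Peak names in the WT list run to number 1027 and 587 were present, so lines had been left out before deposit, as the list name also reads.

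Intervals were compared in Python 3.11.15 (pandas 2.3.3, numpy 2.4.6, scipy 1.17.1), and figures were drawn with matplotlib 3.10.9. Overlap meant at least 1 shared base. Distances count the bases between edges. The ATAC-seq lists were merged, since labels and list names give opposite strains. The 3 WT peaks off the nuclear chromosomes entered widths and counts but no distances. Intervals are 95% Wilson intervals for shares and Newcombe intervals for differences. The code was checked on simulated intervals. Depth is unknown.

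Named regions were the 10 WT-only peaks of highest fold enrichment, the 3 widest, narrowest, nearest to and farthest from a mutant peak, the 3 overlapping WT peaks with the smallest overlap, the 3 groups with the most WT-only peaks, and the 3 WT-only peaks at the strongest ATAC-seq regions, with ties by position. The members and lists were chosen with earlier results of these data known. Alternatives changed the overlap rule, the distance limits, the joining of pieces, the minimum fold enrichment or width, and the ATAC-seq list.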

Additional observations from a re-analysis of the deposited data

How the results depend on the processing

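Of 27 alternatives over 7 results, 11 stayed within the 95% interval of the reported value and 16 did not. The WT-only share of 55.2% became 81.2% with a reciprocal overlap of 50%, 40.3% where a mutant peak within 500 bp counted as a counterpart, and 46.0% among WT peaks with no less than the median fold enrichment. In that stronger set the median width was 545 bp and the share at ATAC-seq peaks 23.2%. The share with a WT neighbour within 1000 bp was 38.9% at 500 bp and 36.3% with pieces of 1 name joined. The median distance to a mutant peak was 1524.5 bp between midpoints and 2457 bp to mutant peaks at or above their median fold enrichment. The share at ATAC-seq peaks was 11.2% by midpoints, 13.9% with the list labelled WT and 12.1% with regions in both lists, an alternative chosen after seeing the data. The median distance to an ATAC-seq peak was 1052.5 bp between midpoints, 685 bp with the list labelled WT and 676 bp with the list labelled Orc4-IHΔ. The share within 20 kb of an end was 5.90%. The cause of these shifts was not tested. No paired analysis was possible because each strain has 1 list per assay, and for the same reason no replicate could be left out. Unknown depth limits what a missing mutant peak means.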

Other observations

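Of the 341 WT-only peaks, 2 lay outside the nuclear chromosomes. On the 2-micron plasmid, the multicopy plasmid of budding yeast, the WT-only peak (3610 to 3794) was enriched 1.20-fold, overlapped an ATAC-seq peak and was 383 bp from a mutant peak, while the WT peak from 4284 to 4748 (1.26) overlapped the mutant list. On the mitochondrial genome, 1 WT-only peak spanned 59642 to 59969 (1.33-fold), and the mutant list had no peak there. The longest stretch of a nuclear chromosome between neighbouring WT-only peaks was 167320 bp on chromosome IV, from 754104 to 921425, and it held 3 WT peaks that overlapped the mutant list and 27 mutant peaks.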
